A study of Homo sapiens with 2 samples.

Results

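AHNAK, its paralog AHNAK2 and 4 genes for proteins that meet them at the membrane, S100A10, S100A11, ANXA1 and ANXA2, were followed in ACHN, an established human cell line of renal cell carcinoma. All 6 were found by gene symbol among the 12007 symbols (12014 gene identifiers) that the files list. AHNAK had been selected on its log2 change between the 2 libraries, the highest of all, and the other 5 were taken for their known ties to it. The change of AHNAK is therefore given as a description. One library carried a lentiviral shRNA against KIAA1429 (shKIAA1429) and the other a control shRNA (shNC). KIAA1429, listed under its current symbol VIRMA, is the scaffold of the complex that writes N6-methyladenosine (m6A) into mRNA, and the comparison asks which transcripts differ between cells given the shRNA against it and cells given the control. Both came from cells kept under puromycin until stably infected, with no other genotype or treatment stated. The labels say knockout where the methods of the study describe an shRNA knockdown, and which of the study's shRNAs against KIAA1429 was sequenced is not stated. There was 1 library per group, so the differences below carry no replicate error and were not tested.

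AHNAK encodes a giant scaffold protein that lies under the plasma membrane and is built from long runs of a repeated unit. Its carboxy-terminal region binds a complex of S100A10 and annexin A2, the product of ANXA2, and this complex tethers it to the membrane. Annexins bind acidic membrane lipids when calcium rises, and S100 proteins are small dimers that most often sense calcium through EF hands, although S100A10 has lost this ability. S100A11 binds the amino-terminal end of annexin A1, the product of ANXA1, much as S100A10 binds that of annexin A2. Together these proteins are known for membrane repair, vesicle traffic, cortical actin and, at the cell surface, for the binding of plasminogen and its activator by S100A10 and annexin A2.

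The repeated unit is visible in the coding sequence of both giant genes. In the longest coding transcripts of GENCODE 29, the most frequent run of 30 in-frame bases is given here for each gene, as an example of the repeats that both share. Capitals mark the 16 bases that the runs of both genes share.

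AHNAK: AAAATGCCCAAGTTCAgcatgcctggcttc

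AHNAK2: agcaagttcAAAATGCCCAAGTTCAagatg

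The AHNAK run stood 9 times in its coding sequence, from base 2641 to base 13995, and the AHNAK2 run 18 times, from base 2017 to base 13410. The shared 16 bases occurred 13 times in the coding sequence of AHNAK and 20 times in that of AHNAK2. Among the longest coding transcripts of 10648 genes they were found in 2 genes (0.0188%), these paralogs. As the 16 bases were taken from the runs of these 2 genes, their presence in both is by construction. How rare any stretch of 16 bases would be was not tested. The longest coding transcript of AHNAK has 18787 bases, of which 96.7% lie in the last of its 5 exons (GRCh38, chr11:62515905-62534074, minus strand). That of AHNAK2 has 18254 bases, of which 95.8% lie in the last of its 7 exons (GRCh38, chr14:104937317-104954799, minus strand). Despite the repeats, 0 of the 18638 stretches of 150 bases in this transcript of AHNAK, the length of 1 sequencing read, occurred in a transcript of another gene.

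The annexins meet their S100 partners through the first residues of the protein, and the 60 coding bases from the start codon are shown for this reason, with the start codon in capitals.

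ANXA1: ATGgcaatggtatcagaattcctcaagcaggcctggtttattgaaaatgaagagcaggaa

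ANXA2: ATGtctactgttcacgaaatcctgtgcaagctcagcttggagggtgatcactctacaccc

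These starts had 24 of 60 bases in common when laid side by side without gaps. Over the whole coding sequence, aligned with gaps allowed, 59.9% of 1013 aligned bases were identical. The 2 measures differ in their use of gaps and cannot be compared directly. The coding sequences of S100A10 and S100A11 had 56.2% of 290 aligned bases in common.

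Levels are given as FPKM, fragments per kilobase of transcript and per 1000000 fragments, which can be compared between genes within a library. The log2 change compares the shKIAA1429 library with the shNC library after 1 FPKM was added to each value, which understates the change of low genes. Over the 10708 genes with a mean of at least 1 FPKM, the median log2 change was 0.06. The FPKM of all listed genes summed to 283046 with shNC and to 249409 with shKIAA1429, with 42.2% and 34.6% from mitochondrial genes. Rescaling each library to the same sum moved the median of all genes by 0.18, so small changes are also given relative to that median. The depth of the libraries is unknown, since FPKM keeps no read count. KIAA1429, the targeted gene, was at 3.92 FPKM with shNC and 3.22 FPKM with shKIAA1429, 82.1% of the control level. Its log2 change of -0.22 was smaller in size than that of ANXA2 or ANXA1. In these 2 libraries, and at a low level, the RNA of the target was thus only slightly lower with shKIAA1429. By RT-qPCR and western blot, the paper reports a significant reduction of KIAA1429 mRNA and protein in ACHN cells carrying its shRNAs. Of the renal tubular markers, 5 of 8 were listed, among them PAX8 and PAX2, with summed levels of 172 and 204 FPKM, and all 5 general epithelial markers were listed. Of the endothelial markers 0 of 5 were listed. The 2 listed of 6 fibroblast markers summed to 1.75 FPKM with shNC and 2.60 FPKM with shKIAA1429. The 2 listed of 6 leukocyte markers summed to 7.80 and 2.21 FPKM, with LYZ, the lysozyme gene, at 3.93 and 0.154 FPKM and CD68 at 3.87 and 2.06 FPKM, whereas PTPRC, CD3E and CD14 were among those not listed. What part these shifts have in the results was not tested.

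AHNAK (ENSG00000124942.13_4, GRCh37 chr11:62201014-62323707, minus strand) was at 6.39 FPKM in the shNC library and at 109.8 FPKM in the shKIAA1429 library. The level with shKIAA1429 was 17.2 times that with shNC, a log2 change of 3.91. In bulk RNA, more expressing cells and more RNA per cell cannot be told apart. AHNAK moved from rank 4923 to rank 195 among the 12014 genes ordered by level. Relative to the median of all genes its log2 change lay between 3.85 and 4.01 under every pseudocount, scaling and treatment of repeated symbols tried. The gene next below it, AC009086.2, was at 3.40, and that value rests on a level listed at 0 with shNC. Of the next 4 genes, AC134669.2 was likewise listed at 0 with shNC. MSRB3, a methionine sulfoxide reductase, went from 2.22 to 19.2 FPKM, CHST14, a dermatan sulfotransferase, from 0.996 to 11.2 FPKM, and PRSS35, of the serine protease family, from 0.213 to 6.04 FPKM. None of these 5 genes was above 20 FPKM in either library.

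AHNAK2 (ENSG00000185567.6_2, GRCh37 chr14:105403581-105444694, minus strand) was at 18.6 FPKM with shNC and at 17.4 FPKM with shKIAA1429. Its log2 change was -0.09, which became 0.08 when both libraries were rescaled to the same sum and stayed at -0.09 when they were rescaled without mitochondrial genes. Relative to the median of all genes it lay between -0.17 and -0.15. The paralogs thus changed places: AHNAK stood at 0.343 times the level of AHNAK2 in the shNC library and at 6.32 times that level in the shKIAA1429 library. Such ratios within a library do not depend on its scaling.

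**Figure D1:**
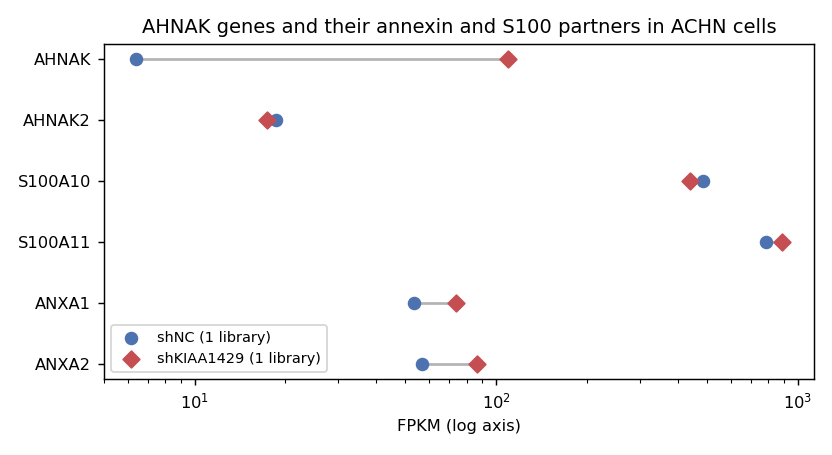
FPKM of the 6 genes on a log axis, with a circle for the shNC library and a diamond for the shKIAA1429 library, 1 library each. AHNAK spans 6.39 to 109.8 FPKM, ANXA1 and ANXA2 lie further right with shKIAA1429, and the symbols of AHNAK2, S100A10 and S100A11 nearly touch.

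S100A10 (ENSG00000197747.8_2, GRCh37 chr1:151955391-151966866, minus strand), the light chain of the complex that holds AHNAK, was at 487 FPKM with shNC and 439.9 FPKM with shKIAA1429. This log2 change of -0.15 became 0.04 with both libraries rescaled to the same sum, and -0.14 when they were rescaled without mitochondrial genes. Relative to the median of all genes it lay between -0.22 and -0.20. ANXA2 (ENSG00000182718.16_3, GRCh37 chr15:60639333-60695082, minus strand), which encodes the partner of S100A10 in that complex, was at 56.7 FPKM with shNC and 86.7 FPKM with shKIAA1429, a log2 change of 0.61. Its change was higher than that of all but 27 of the other 535 genes in its bin when genes were split into 20 bins by mean level. Relative to the median of all genes, S100A10 was therefore lower and ANXA2 higher. S100A10 falls in the same bin, whose median was -0.06, and 344 of its genes had a higher change and 191 a lower one. The 10th and 90th percentiles of the bin were -0.43 and 0.40, with S100A10 between them and ANXA2 above both. There was 8.59 times as much S100A10 as ANXA2 with shNC and 5.07 times as much with shKIAA1429. AHNAK, in turn, went from 0.113 to 1.27 times the level of ANXA2.

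ANXA2 carries a limit that the other genes lack to this extent. Of the 1527 stretches of 150 bases in its longest coding transcript, 115 (7.53%) also occur in ANXA2P2, a processed pseudogene, and of the stretches of 50 bases 35.3% occur in 1 or more other genes. How reads with several matches were placed is not given in the sources used here, and pseudogenes were not analysed here.

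S100A11 (ENSG00000163191.5_2, GRCh37 chr1:152004982-152020383, minus strand) was the most abundant of the 6, at 783 FPKM with shNC and 889 FPKM with shKIAA1429, a log2 change of 0.18. ANXA1 (ENSG00000135046.13_3, GRCh37 chr9:75766673-75785309, plus strand), which encodes its annexin partner, was at 53.3 FPKM with shNC and 73.8 FPKM with shKIAA1429, a log2 change of 0.46. Within its bin of 536 genes, 36 had a higher change than ANXA1. The S100A11 level was 14.7 times that of ANXA1 with shNC and 12.04 times with shKIAA1429. In both S100 and annexin pairs the annexin was higher with shKIAA1429 and the excess of the S100 partner was smaller.

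Of the 6 genes, 1, AHNAK, had a log2 change above 1.5, the fold part of the limit in the study's methods, against 0.392% of all 10708 genes. This count follows from the choice of AHNAK, and nothing is read from it. None was lower by more than 1.5, against 0.252% of all genes. By more than 0.5, a lower limit used for description, 2 of the 6 were higher (AHNAK and ANXA2), against 9.92% of all genes. This count too follows in part from the choice of AHNAK, and nothing is read from it. None of the 6 was lower by more than 0.5, against 6.12% of all genes. After rescaling to the same sum ANXA1, at 0.65, was higher as well, but 2560 of the 10708 genes then were, in place of 1062. In the order of levels S100A11 and S100A10 led in both libraries. With shNC they were followed by ANXA2, ANXA1, AHNAK2 and AHNAK, whereas with shKIAA1429 AHNAK stood between the S100 genes and the annexins. With 1 library each, the spread between neighbors in this order is unknown.

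**Figure D2:**
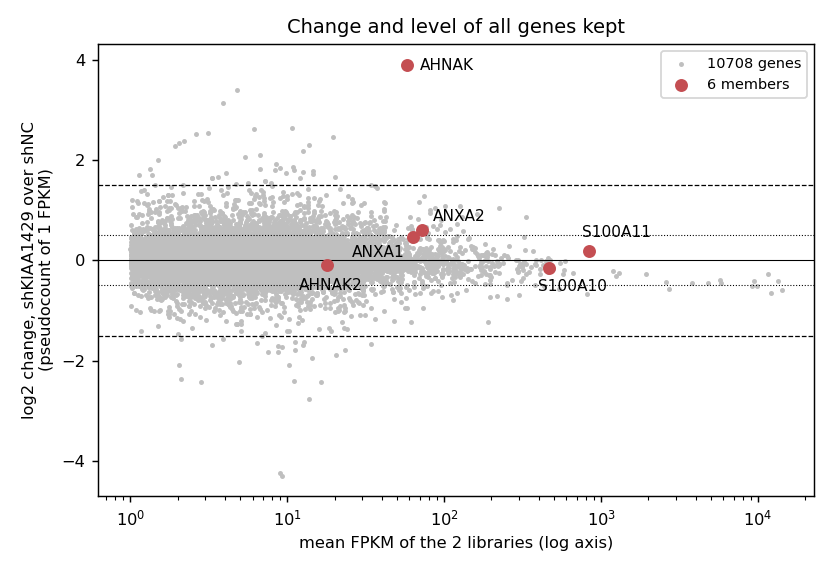
Log2 change (shKIAA1429 over shNC, pseudocount of 1 FPKM) against the mean FPKM of both libraries on a log axis, for the 10708 genes kept, in gray, and the 6 genes described, in red. Dashed lines mark 1.5 and dotted lines 0.5 in either direction, and AHNAK stands above every other gene at 3.91 while the other 5 lie between -0.15 and 0.61.

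The level of AHNAK depends on how fragments were placed on its transcripts. GENCODE 29 holds 8 transcripts of AHNAK, the longest with 18787 bases and the other 7 with 568 to 1024 bases. If all its fragments came from the longest, its FPKM values would stand for 120.1 fragments per 1000000 with shNC and 2063 with shKIAA1429. On the same reckoning S100A10, with a transcript of 1202 bases, would give 585 and 529 fragments per 1000000. How fragments were divided between long and short transcripts of AHNAK was not tested. On the strand opposite to AHNAK GENCODE 29 places 2 noncoding genes, AP001363.1 and AP001363.2, which were not analysed here. Whether the counting used strand is not given in the sources used here.

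Because KIAA1429 belongs to the m6A writer, the letters GGACT, the DNA form of the most common m6A consensus, were counted in the longest coding transcript of each gene on the transcript's own strand. That of AHNAK held 17, or 0.905 per kilobase, and that of AHNAK2 14, or 0.767 per kilobase. The median over 10648 genes was 0.927 per kilobase, and 92.1% of them held the letters at least once. ANXA2 held 1.19 per kilobase, S100A10 0.832 and ANXA1 0.453, and S100A11 held none. These counts describe letters, not methylated sites, and m6A was not measured in these files.

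The genes around AHNAK on chromosome 11 did not share its change as a group. Of the 5 listed genes on either side, 7 of 10 had a log2 change within 0.5 in either direction, and the median of the 10 was -0.07. Higher by more than 0.5 were 2 of the 10, against 9.92% of all genes, and 1 was lower by as much, against 6.12%. Higher by more than 1.5 was 1 of the 10, against 0.392% of all genes. On the lower-coordinate side, ASRGL1, an asparaginase, lies 40130 bases away and went from 1.34 to 1.59 FPKM. INCENP, of the chromosomal passenger complex, went from 5.88 to 8.91 FPKM, and FTH1, the ferritin heavy chain, from 390.5 to 371 FPKM. On the other side, EEF1G, a subunit of translation elongation factor 1, lies 3366 bases away and was at 560.04 FPKM with shNC and 538 FPKM with shKIAA1429. AP002990.1, the neighbor past 1.5, went from 3.37 to 14.7 FPKM, a log2 change of 1.85, but it overlaps both EEF1G and TUT1 on the same strand, so its reads could have been split with theirs. TUT1, a terminal uridylyl transferase, went from 3.24 to 1.89 FPKM, a log2 change of -0.55. For the other 5 genes described, 5 listed genes were likewise taken on each side by start position. Of these 10 for each, 0 passed 1.5 in either direction. Some lie far away, such as RFK at 3215124 bases from ANXA1. The sets of S100A10 and S100A11 share most of their genes and include each other. Of all genes, 0.392% were higher and 0.252% lower by as much. None of the 6 genes overlaps another listed gene on either strand.

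**Figure D3:**
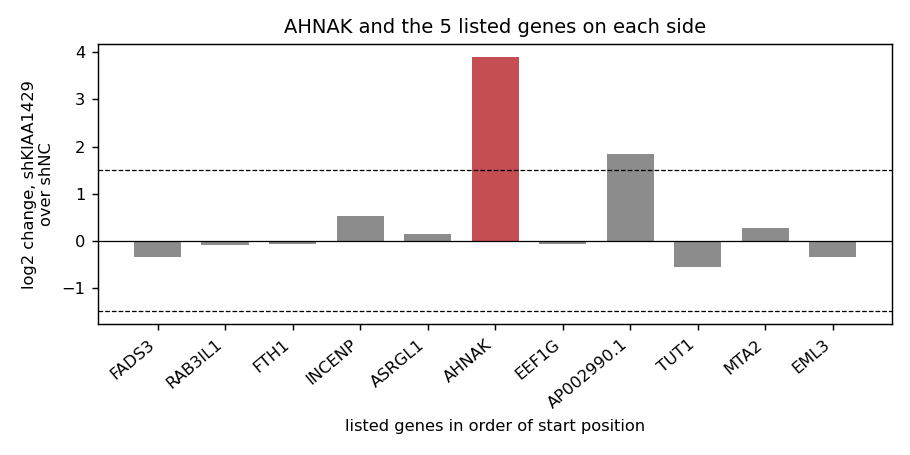
Log2 change (shKIAA1429 over shNC) of AHNAK, in red, and of the 5 listed genes on each side in the order of their start positions on chromosome 11, in gray, with dashed lines at 1.5 in either direction. AHNAK at 3.91 and AP002990.1 at 1.85 pass the upper line, and the other 9 bars stay between -0.55 and 0.53.

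The annexin family as listed held 8 of 13 genes, and the other 5 were not analysed here. Their FPKM summed to 355 with shNC and to 450.5 with shKIAA1429. The median log2 change of the 8 genes was 0.26, against 0.06 over all genes. Above 0 were 6 of the 8, against 6134 of all 10708 genes. ANXA5, the most abundant, was at 132 and 162 FPKM, its log2 change being 0.29, and it made up 37.3% and 35.9% of the family. ANXA3 was at 19.3 and 28.3 FPKM, and its log2 change of 0.53 became 0.47 after centering on the median of all genes. Higher by more than 0.5 were 2 of 8 annexins, ANXA2 and ANXA3, against 9.92% of all genes, and 0 were lower by as much, against 6.12%. ANXA7 (43.0 and 49.2 FPKM) and ANXA4 (14.3 and 16.9 FPKM) were higher by less than 0.25. ANXA11 (25.7 and 24.6 FPKM) and ANXA6 (10.1 and 9.11 FPKM) were lower by less than 0.15, and both were above 0 when the libraries were rescaled to the same sum. Rescaled without mitochondrial genes, ANXA11 was at -0.06 and ANXA6 at -0.14. ANXA1 and ANXA2 together made up 31.0% of the annexin FPKM with shNC and 35.6% with shKIAA1429.

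Of the S100 family 9 of 20 genes were listed, and the rest were not analysed here. The family summed to 1684 FPKM with shNC and 1726 FPKM with shKIAA1429. S100A11 and S100A10 together made up 75.4% and 77.0% of it. The median log2 change was -0.15, which became 0.04 on rescaling to the same sum. S100A16, a member of the family found in many tissues, was the only one past 0.5, against 9.92% of all genes higher by as much. It was at 25.7 and 57.8 FPKM, a log2 change of 1.14. S100A4 reached 0.51 after rescaling to the same sum, with 2560 of the 10708 genes then higher by more than 0.5. S100A3 reached -0.51 with a pseudocount of 0.1, with 934 genes then lower by more than 0.5. S100A6, a calcium sensor, went from 315 to 273 FPKM and S100A13, which takes part in the release of growth factors, from 49.0 to 44.7 FPKM. At lower levels, S100A4, linked to cell motility, was at 6.85 and 8.72 FPKM, and S100A2 at 10.7 and 8.56 FPKM. S100A1 was at 3.47 and 2.45 FPKM and S100A3 at 2.59 and 1.78 FPKM. The most abundant family members kept their order in both libraries, S100A11 before S100A10 and S100A6.

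**Figure D4:**
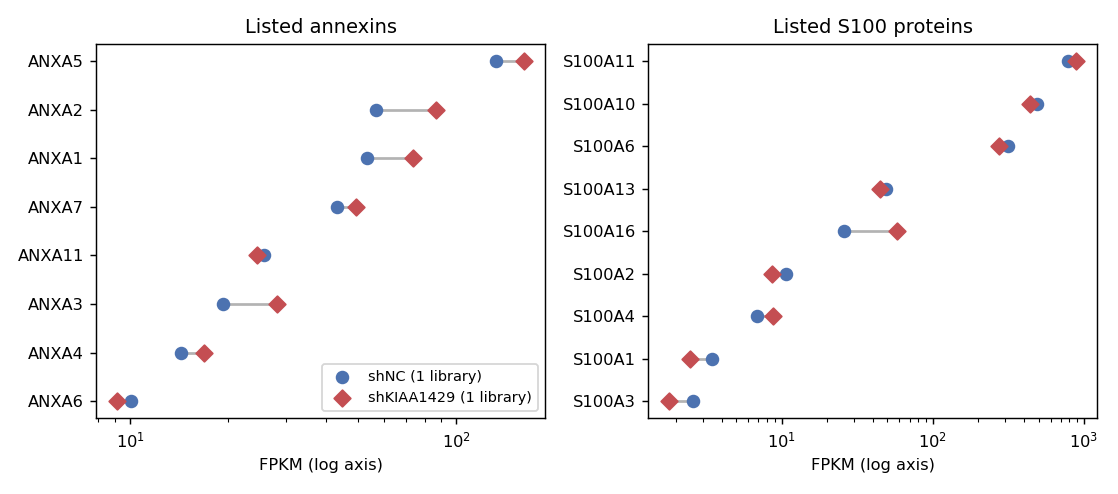
FPKM on a log axis of the 8 listed annexins, left, and the 9 listed S100 genes, right, in the order of their shNC level, with a circle for the shNC library and a diamond for the shKIAA1429 library, 1 library each. S100A16 has the widest gap, 25.7 to 57.8 FPKM, followed by ANXA2, 56.7 to 86.7 FPKM.

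The S100A10 and annexin A2 complex gathers plasminogen and tissue plasminogen activator at the cell surface, and genes of the plasminogen system were followed as a list. Of 12 genes 10 were listed, with a median log2 change of 0.35. Higher by more than 0.5 were 4 of the 10, against 9.92% of all genes, and 0 were lower by as much, against 6.12%. That 0 depends on the settings, since PLGRKT, a plasminogen receptor at 7.38 and 4.94 FPKM, was at -0.50, just short of the limit, and reached -0.56 after centering and -0.57 with a pseudocount of 0.1. SERPINF2, the gene of alpha-2-antiplasmin, at 2.80 and 1.91 FPKM, was at -0.38 and reached -0.53 with that pseudocount, and both were named after their values were seen. PLAU, the urokinase activator, went from 64.0 to 137 FPKM, a log2 change of 1.09. PLAUR, the urokinase receptor, went from 2.15 to 4.12 FPKM, a log2 change of 0.70. PLAT, tissue plasminogen activator, was low, at 0.971 and 1.81 FPKM, and its log2 change of 0.51 became 0.46 after centering. Without genes under a mean of 5 FPKM the median of the list was 0.18.

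AHNAK and the annexins are also known from the repair of torn plasma membrane, together with dysferlin. Of 27 genes of membrane repair and caveolae 24 were listed, with a median log2 change of 0.18. Higher by more than 0.5 were 6 of the 24, against 9.92% of all genes, of which 1 was past 1.5, against 0.392%, and 0 were lower by more than 0.5, against 6.12%. EHD2, an ATPase at the neck of caveolae, went from 3.91 to 21.2 FPKM, a log2 change of 2.18. DYSF, the dysferlin gene, went from 3.38 to 6.74 FPKM, a log2 change of 0.82. VAMP7, a SNARE of lysosome fusion, was at 2.26 and 5.91 FPKM, VPS4B, an ATPase of the ESCRT machinery, at 7.71 and 12.6 FPKM, and EHD1, a paralog of EHD2 in endosome recycling, at 7.08 and 10.9 FPKM. The last 3 had log2 changes of 1.08, 0.65 and 0.56.

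Among ligands and regulators of AHNAK, S100A10 and annexin A2, 15 of 26 genes were listed. Their median log2 change was -0.01, which became 0.14 on rescaling to the same sum. Past 0.5 in the upward direction were 2 of the 15, against 9.92% of all genes, namely GRB2, a growth factor adaptor (3.95 and 15.6 FPKM, log2 change 1.75), and DLC1, a GTPase-activating protein (9.36 and 14.5 FPKM, log2 change 0.58). PTPN6, a tyrosine phosphatase, was the 1 gene of this list lower by more than 0.5, against 6.12% of all genes, at 6.28 and 3.75 FPKM, a log2 change of -0.61.

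A last list held other large scaffold proteins and linkers of the cytoskeleton. Of its 52 genes, 43 had a mean of at least 1 FPKM, and 0 of these 43 passed 1.5 in either direction. Of all genes, 0.392% were higher and 0.252% lower by as much. The median log2 change of the 43 was 0.15. Higher by more than 0.5 were 2 of the 43, against 9.92% of all genes, and lower 1, against 6.12%, with DSP, the desmoplakin gene, at -0.49 and at -0.55 after centering, named after its values were seen. EVPL, the envoplakin gene, was at 2.17 and 4.76 FPKM, a log2 change of 0.86. MACF1, a linker of actin and microtubules, was at 9.72 and 14.2 FPKM, a log2 change of 0.51 that became 0.45 after centering. SPTAN1, the nonerythroid alpha spectrin, was at 21.1 and 14.3 FPKM, a log2 change of -0.53 that became -0.37 on rescaling to the same sum.

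**Figure D5:**
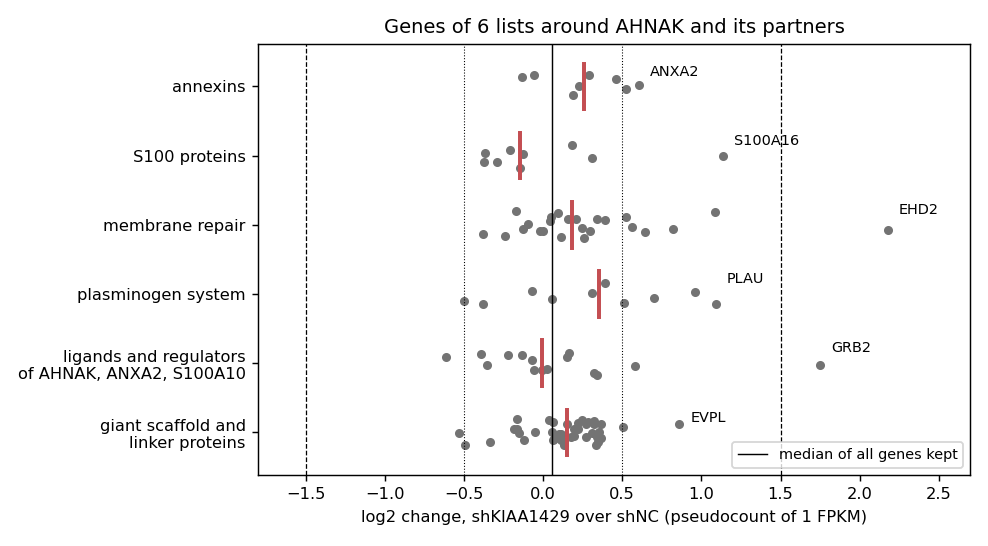
Log2 change (shKIAA1429 over shNC, pseudocount of 1 FPKM) of each gene with a mean of at least 1 FPKM in the 6 lists, 1 gray point per gene with vertical jitter, the list's median as a red bar and the highest gene named. The black line is the median of all genes at 0.06, and EHD2 at 2.18 and GRB2 at 1.75 lie beyond the dashed line at 1.5.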

How the data were processed

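Poly(A) RNA of 1 shKIAA1429 and 1 shNC culture of ACHN cells was sequenced in paired reads of 150 bases. The authors deposited FPKM values per gene, 1 file per library, for 12014 protein-coding genes, each above 0.5 FPKM in 1 or both libraries. The submitters' processing notes name cutadapt 1.9, HISAT2 2.0.4, StringTie 1.3.4d and, without a version, DESeq2 and edgeR. The genome build is not given in the sources used here, and the positions listed are those of GENCODE genes on GRCh37. Depth cannot be recovered from FPKM, and values of overlapping genes depend on how reads were divided between them.

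Changes were computed as log2((FPKM + 1) with shKIAA1429 / (FPKM + 1) with shNC), and genes with a mean of at least 1 FPKM were kept (10708). With 1 library per group no test was run. A limit of 1.5 was taken from the study's methods, and 0.5 was added for description. The study applied its limit to DESeq2 results together with a P value limit, so counts past 1.5 here are not its criterion. The genes described, the 6 lists and the limits were chosen with earlier results of these data known. Named were the 6 genes, KIAA1429, each listed annexin and S100 gene, up to 5 genes per direction past 0.5 from each other list, the 5 next highest changes, and the 3 nearest listed genes on either side of AHNAK. One gene of the plasminogen list that this rule names is counted but not reported here. The cutoff of 10000 bases for long transcripts, the letters counted and the stretches and repeats compared were chosen after seeing the data.

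Transcript sequences and structures came from GENCODE 29 (GRCh38), and 10648 of the 10708 genes (99.4%) were matched through their Ensembl identifiers. The longest coding transcript of each gene was used, and all stretches of 50 and 150 bases were compared exactly, on the same strand, with all transcripts. The alternatives were a pseudocount of 0.1, centering, rescaling to a sum of 1000000 with and without mitochondrial genes, summed rows, other filters and a limit of 1. The computation was tested on simulated data. Python 3.11.15, NumPy 2.4.6, pandas 2.3.3 and matplotlib 3.10.9 were used.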

Additional observations from a re-analysis of the deposited data

How the results depend on the processing

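AHNAK stayed past 1.5, and AHNAK2, S100A10 and S100A11 within 0.5, under all 5 alternatives run for single genes. The log2 change of AHNAK ranged from 3.85 to 4.23, and that of ANXA2, past 0.5 throughout, from 0.55 to 0.79. Rescaling without mitochondrial genes left AHNAK2 at -0.095, S100A10 at -0.143 and ANXA1 at 0.473. Rescaling to a sum of 1000000 with them moved AHNAK2 to 0.082, S100A10 to 0.036 and ANXA1 to 0.65, past 0.5. It moved the median of all genes to 0.24, those of the annexin list to 0.45, the S100 list to 0.036, membrane repair to 0.37, the plasminogen system to 0.62, the ligands and regulators to 0.14 and the giant proteins to 0.34. The log2 ratio of the summed annexins became 0.53 in place of 0.34, and that of the S100 genes 0.22 in place of 0.04. The plasminogen median was 0.50 with a pseudocount of 0.1 and 0.18 with a mean of at least 5 FPKM.

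Of all genes, 42 were higher and 27 lower by more than 1.5. A pseudocount of 0.1 gave 114 and 60, rescaling 135 higher, rescaling without mitochondrial genes 109 and 57, a limit of 1 174 and 96, and a mean of at least 5 FPKM 24 higher. Past 0.5, 1062 were higher and 655 lower. Rescaling gave 2560 higher, and a mean of at least 5 FPKM 615 and 359, by construction because fewer genes were counted. Otherwise the cause was not tested. Of the 104 other listed genes, 56 kept their direction and their side of both limits in every alternative. No paired analysis was possible because each condition was sequenced once.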

Other observations

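Among the genes with a mean of at least 1 FPKM, 415 have a longest coding transcript of at least 10000 bases. Their median log2 change was 0.15, against 0.06 over all genes, and 359 of them lay within 0.5 in either direction. Higher by more than 0.5 were 49 of the 415, against 9.92% of all genes, and 7 were lower by as much, against 6.12%. Higher by more than 1.5 were 2 of them, against 0.392% of all genes, and 0 were lower by as much, against 0.252%. These 2 were AHNAK at 3.91, selected on its change, and PTPN14, a tyrosine phosphatase, at 1.77. PTPN14 was chosen after its value was seen. A longest coding transcript at least as long as that of AHNAK was found in 23 other genes, and AHNAK2, its paralog, is not among them.

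FLG, the filaggrin gene, is the listed gene next to S100A11 on chromosome 1 and was chosen after its values were seen. It also codes for a long repetitive protein, and it was at 1.82 FPKM with shNC and at 5.94 FPKM with shKIAA1429, a log2 change of 1.298.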
